A study of Mus musculus with 4 samples.

Results

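The genes described here are the nuclear genes for subunits of the mitochondrial respiratory chain, measured in CD4 cells from sanroque and control animals. Members were chosen by symbol, as genes starting with Ndufa, Ndufb, Ndufc, Ndufs or Ndufv (complex I), Sdha to Sdhd (complex II), Uqcr or Cyc1 (complex III), Cox4 to Cox8 (complex IV) or Atp5 (complex V), plus Cycs for cytochrome c. The rule found 89 genes of 12393 with a probe set of a single symbol, on 164 of 22690 probe sets. Complex I had 33 genes, complex II 4, complex III 9, complex IV 17 and complex V 17. The symbol rule also brought in 5 complex I assembly factors (Ndufaf) and 3 complex II assembly factors (Sdhaf), which were kept apart from the subunits. The 13 subunits encoded by mitochondrial DNA were not analysed here. Ndufa4 was counted in complex IV, where its protein is now placed.

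The respiratory chain passes electrons from NADH and succinate to oxygen and uses the energy to pump protons across the inner mitochondrial membrane. Complex I oxidises NADH, complex II oxidises succinate, complex III hands electrons to the mobile carrier cytochrome c, complex IV reduces oxygen, and complex V, the ATP synthase, makes ATP from the returning protons. T cells at rest draw much of their ATP from this chain, and activated T cells also raise glycolysis.

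The data were 4 oligonucleotide arrays of total RNA, 2 from +/+ (wild type) and 2 from san/san (homozygous sanroque) animals. Sanroque is a recessive line from a screen of C57BL/6 mice given the mutagen ENU. Its mice had antinuclear antibodies by 12 weeks of age, and the labels give no age for the animals behind each array. The mutation is inherited, and the labels tie it to no cell type. The experiment records of the number 1 arrays speak of sorted T cells, and 1 wild type record, that of array 2, has the unexplained letters CBA, so strain and mutation cannot be told apart for that array. Whether arrays of a genotype came from separate mice is not stated, and p-values therefore reflect only array-to-array spread, which may be technical.

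All arrays had been scaled to the same trimmed mean of 99.99. The T cell marker Cd4 read 533.3 and 613.5 in wild type and 585.9 and 570.2 in sanroque, and 0 of 5 measured T cell markers were called different. Cd5 read 925.3 and 973.8 against 693.7 and 759.8, without overlap. Its log2 difference was -0.38, with a limma adjusted p of 0.488 without a replicate block and 0.103 with it. Cd3d and Cd3g differed by -0.09 and -0.10, and Cd3e and Cd4 by 0.07 and 0.01. The 3′ to 5′ ratio of the Gapdh control, a sign of RNA integrity, was 0.701 and 0.827 in wild type and 0.785 and 0.81 in sanroque. The signal of myeloid and red cell markers was higher in sanroque. Of the tested B cell, NK cell and CD8 T cell markers, 0 of 4, 0 of 2 and 0 of 2 were called different. The summed signal of 6 myeloid markers was 1028.4 and 1118.4 in wild type and 2381.7 and 2418.4 in sanroque, with 4 of 5 tested members called higher (Lyz2, S100a8, S100a9 and Ngp). The summed signal of 3 red cell markers was 775.8 and 769.4 against 1166 and 1280.9, with 0 of 2 tested members called in limma without a block. With the replicate block both were called higher, Alas2 with an adjusted p of 0.00383 and Slc4a1 with 0.00481, as was the myeloid marker Csf1r with 0.0389. The part of these cells in the results below was not tested. In these bulk samples, fewer cells of a type and less RNA per cell cannot be told apart.

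Of the 89 genes, 87 were bright enough to test, each by its brightest probe set with a mean signal of at least 21.3. Cox7a1 and Cox8b, forms of complex IV subunits found in heart and muscle, were not tested. Cox7a1 read 2.0 and 11.6 in wild type and 2.0 and 5.9 in sanroque. Cox8b read 3.5 and 1.9 against 1.9 and 1.8. Differences below are sanroque minus wild type on the log2(signal + 6) scale. Signals of different genes come from different probes and are not compared with each other.

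Promoters are shown for the pair of genes with the clearest lower signal, Cox7c and Ndufa4, and for the members that share a binding sequence of NRF-1, a transcription factor known for driving genes of the respiratory chain. Sequences are from RefSeq on build GRCm38.p6, 5′ to 3′ on the gene's strand, and end at the base before the annotated start. The table held promoters for 74 of the 89 genes, with 79 windows. The 250 bases upstream of Cox7c, at chr13:86046796-86047045 on the minus strand, and of Ndufa4, at chr6:11907451-11907700 on the minus strand, are:
Cox7c: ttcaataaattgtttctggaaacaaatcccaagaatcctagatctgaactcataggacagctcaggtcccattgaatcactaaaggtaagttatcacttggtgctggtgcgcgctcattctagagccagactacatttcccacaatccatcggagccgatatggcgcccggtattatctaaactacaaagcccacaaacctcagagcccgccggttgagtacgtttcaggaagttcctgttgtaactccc
Ndufa4: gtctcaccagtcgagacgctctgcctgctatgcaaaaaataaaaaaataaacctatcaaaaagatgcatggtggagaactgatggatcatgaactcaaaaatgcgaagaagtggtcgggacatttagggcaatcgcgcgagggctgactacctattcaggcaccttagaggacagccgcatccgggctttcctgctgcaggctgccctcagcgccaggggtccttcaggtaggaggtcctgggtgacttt

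These windows were searched on both strands for exact matches to the NRF-1 core GCGCATGC, the ETS (GABPA) site CCGGAAGT, the YY1 site AAGATGGC and the CCAAT box. Neither the Cox7c nor the Ndufa4 window held any of these letters. The NRF-1 core lay in 9 of 79 member windows (11.4%), against 2.26% of all 32851 windows and 2.93% of 21263 windows of protein-coding genes. The ETS site lay in 3.8% of member windows, 2.88% of all windows and 3.79% of windows of protein-coding genes, the YY1 site in 1.27% and 1.56%, and the CCAAT box in 39.2% and 33.8%. The core and its reverse overlap in the longer run GCGCATGCGC, which counted once per window. The 9 matches are shown with up to 15 bases on either side and the core in capitals:
Ndufa6: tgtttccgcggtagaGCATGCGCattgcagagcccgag
Ndufa8: cgcgtcgctggagacGCATGCGC
Ndufaf4: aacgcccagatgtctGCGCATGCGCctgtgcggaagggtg
Sdhb: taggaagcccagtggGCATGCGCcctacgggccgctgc
Cox6a1: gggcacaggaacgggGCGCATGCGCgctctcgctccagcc
Atp5g2: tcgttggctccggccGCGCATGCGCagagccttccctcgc
Atp5k: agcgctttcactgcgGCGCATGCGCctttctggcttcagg
Atp5l: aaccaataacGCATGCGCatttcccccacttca
Cycs: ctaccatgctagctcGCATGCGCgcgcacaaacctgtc

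The window of Ndufa6 lies at chr15:82354352-82354389 and that of Ndufa8 at chr2:36049339-36049361. Ndufaf4 is at chr4:24897955-24897994, Sdhb at chr4:140961202-140961239 and Cox6a1 at chr5:115349096-115349135. Atp5g2 is at chr15:102671065-102671104, Atp5k at chr5:108434425-108434464, Atp5l at chr9:44920960-44920992 and Cycs at chr6:50566607-50566644. Ndufaf4 and Sdhb lie on the plus strand and the others on the minus strand. In 8 of these 9 genes the signal difference was below 0 by the brightest probe set, with a median of -0.15. Over all 87 members 57 were below 0, with a median of -0.09. Dimmer probe sets of Ndufaf4 (0.03) and Atp5k (0.03 and 0.12) were above 0, and those of Cox6a1, Atp5g2 and Cycs below 0. A match is a description of letters and not a measured binding site.

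No member passed the test without the day as a block, and Cox7c and Ndufa4 passed with it. Limma without a block called 0 of the 87 genes higher and 0 lower (Benjamini-Hochberg adjusted p under 0.05), with 0 higher and 2 lower at an unadjusted p under 0.05. Among all 7860 genes tested, 0.776% were called higher and 0.331% lower. With the hybridisation day as a replicate block, 2 members were called lower and 0 higher. The background of that fit was 2.12% of genes lower and 3.92% higher. The called share of the members, 2 of 87, is near that background. For 80 of the 87 genes the 95% interval of the difference lay within a 2-fold change in either direction, and for 37 within 1.5-fold.

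**Figure D1:**
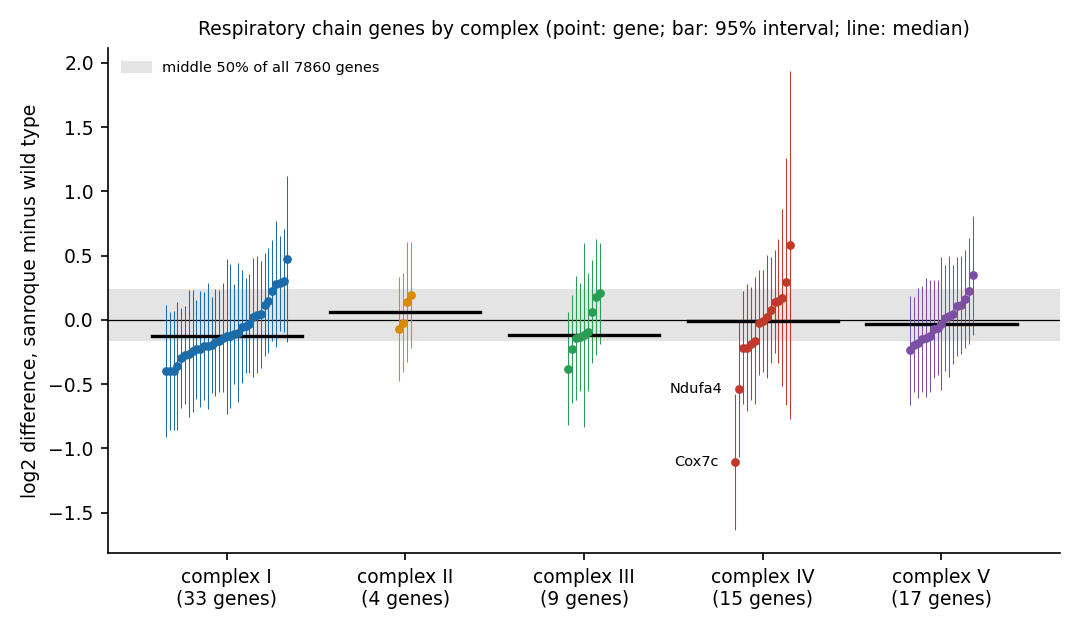
The log2 difference of signal, sanroque minus wild type, is plotted for each tested gene by complex, with its 95% interval from limma without a block. Black lines are the medians, and the grey band holds the middle 50% of all genes. Cox7c and Ndufa4 lie below the others of complex IV, and most points of complex I lie below 0.

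Both genes called with the block belong to complex IV. Cox7c, a small nuclear-encoded subunit of cytochrome c oxidase, read 98.9 and 84.4 in wild type and 42.2 and 36.5 in sanroque. Both sanroque arrays were below both wild type arrays. The means were 91.65 ± 10.3 and 39.35 ± 4.03 (SD, n = 2). The difference was -1.11 (SE 0.24, 95% interval -1.64 to -0.57), with an adjusted p of 0.0638 in limma without a block and 0.000762 with it. Within pair 1 it was -1.12 and within pair 2 -1.09. A second probe set of Cox7c read 32.4 and 33.4 against 16.3 and 21.2. It did not overlap either and differed by -0.66, with a limma adjusted p of 0.661 without the block and 0.284 with it. Both Cox7c probe sets were dim, with means over all arrays of 65.5 for the brightest and 25.8 for the other. The lowest mean signal tested was 21.3, so the dimmer one lay near that limit. Without the block their SE was 0.24 and 0.395, above the median of 0.196 over all members, so the size of the Cox7c difference is imprecise.

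Ndufa4, once listed with complex I and now known to be part of complex IV, read 505.3 and 854.6 in wild type and 409.6 and 495.1 in sanroque. The arrays of the genotypes did not overlap, and the wild type arrays lay far apart. The difference was -0.54 (SE 0.239, 95% interval -1.07 to -0.01), with an adjusted p of 0.49 without the block and 0.024 with it. The pairs gave -0.30 and -0.78. Without wild type array 1 the difference was -0.92, with an adjusted p of 0.0111 in limma. Without wild type array 2 it was -0.16, with an adjusted p of 0.998.

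**Figure D2:**
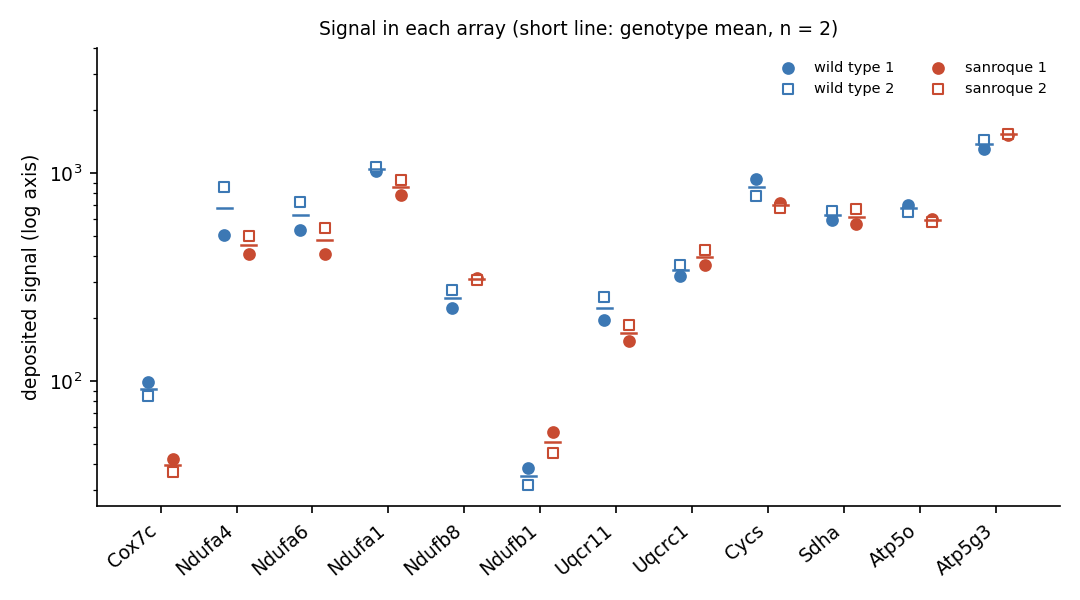
Deposited signal in each array, on a log axis, for 12 members of the different complexes; blue is wild type, red is sanroque, filled points are number 1 arrays and open squares are number 2 arrays, with a short line at each genotype mean (n = 2). Genes are not comparable with each other in height. The Cox7c and Ndufa4 points of sanroque lie below those of wild type.

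In complex I, 23 of the 33 genes were below 0 and 10 above, over a range of -0.40 to 0.47. The median was -0.13, against 0.03 for all genes and -0.003 for the 4095 genes of mean signal 100 or more. It was -0.25 without wild type array 1 and -0.23 without sanroque array 2, but 0.02 without wild type array 2 and 0.01 without sanroque array 1. In 16 genes both pairs were lower and in 7 both were higher. Both pairs were lower in 27.4% of all genes and higher in 34.8%. Lower in both sanroque arrays without overlap were 4 genes, against a background of 16.3%, and higher without overlap were 5, against 22.3%. The pairs gave medians of -0.12 and -0.12.

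The 12 Ndufa genes, accessory subunits of complex I, had the lowest median, -0.25, with 10 below 0. Ndufa6, a subunit that binds the acyl carrier protein, read 534.5 and 722.1 in wild type and 407.9 and 541.4 in sanroque, a difference of -0.40. Ndufab1, that acyl carrier protein, read 308.6 and 402.0 against 228.8 and 310.0, also -0.40 in its brightest probe set. In both genes sanroque array 2 was above wild type array 1, so the genotypes overlapped. Ndufa1, a membrane-arm subunit, read 1021.4 and 1071.0 against 782.9 and 924.0 with no overlap and a difference of -0.30. None of these passed the test, with adjusted p of 0.596 for Ndufa6, 0.603 for Ndufab1 and 0.653 for Ndufa1 in limma.

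Other groups of complex I lay closer to 0 than the Ndufa genes. The 6 core subunits measured, most of which carry redox centres, had a median of -0.15 with 4 below 0. Ndufv1, which binds NADH and the flavin, read 371.3 and 337.5 in wild type and 283.8 and 319.5 in sanroque, a difference of -0.23 with no overlap. Ndufs1, an iron-sulfur subunit, read 196.8 and 219.4 against 180.0 and 254.0, a difference of 0.04 with opposite signs in the pairs. Ndufs4, whose loss impairs assembly of the NADH-binding part, had the smallest difference of the complex, 0.02, with 190.8 and 270.8 against 212.6 and 250.2.

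Above 0 without overlap were Ndufb1, Ndufb8, Ndufb9, Ndufv3 and Ndufa5. Ndufb8, a membrane-arm subunit often used as a marker of assembled complex I, read 224.6 and 275.2 in wild type and 311.4 and 306.5 in sanroque, a difference of 0.31 with a limma adjusted p of 0.654. Ndufb1 read 38.1 and 31.7 against 56.6 and 45.2, a difference of 0.47. By brightest probe sets, 5 of the 33 complex I genes were higher without overlap (15.2%), against 22.3% of all genes. Lower without overlap were 4 (12.1%), against 16.3%. A dimmer tested probe set of Ndufb9 gave -0.04 and of Ndufa5 -0.09, both with overlap.

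Complex II, the only one also in the tricarboxylic acid cycle, showed small differences. Its 4 subunits had a median of 0.06, or -0.03 under median centring of the arrays, and 2 of them were above 0. Without wild type array 1 it was -0.10, without sanroque array 2 -0.04, without wild type array 2 0.22 and without sanroque array 1 0.16. In 0 of the 4 did the arrays of the genotypes stand apart, against 16.3% of all genes lower and 22.3% higher without overlap. Sdha, the flavoprotein, read 595.3 and 654.2 in wild type and 565.9 and 668.4 in sanroque, a difference of -0.02 (95% interval -0.41 to 0.37). Sdhb, the iron-sulfur subunit, read 484.4 and 636.2 against 615.4 and 659.9, a difference of 0.20. Sdhc and Sdhd, the membrane anchors, differed by -0.07 and 0.14, from 187.1 and 204.7 against 173.6 and 199.6 for Sdhc and 130.3 and 185.3 against 161.5 and 183.3 for Sdhd.

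Complex III had a median of -0.12 over 9 genes, 6 below 0 and 3 above, from -0.38 to 0.21. The median was -0.33 without wild type array 1 and -0.36 without sanroque array 2, but 0.06 without wild type array 2 and 0.09 without sanroque array 1. Both pairs were lower in 4 genes and higher in 1. Uqcr11, a small subunit, was lower in both pairs, with 196.4 and 253.4 in wild type and 155.7 and 185.6 in sanroque, a difference of -0.38 with a limma adjusted p of 0.596. Uqcrfs1, the Rieske iron-sulfur protein, read 333.7 and 416.5 against 288.3 and 350.6, a difference of -0.23 with overlapping arrays. Uqcrc1, a core protein, read 320.4 and 360.7 against 361.1 and 428.4, which did not overlap and differed by 0.21. Cyc1, the cytochrome c1 gene, read 476.6 and 526.4 against 385.5 and 569.9, a difference of -0.09. Uqcrb, the ubiquinone-binding subunit, was closest to 0 at 0.06, with 1883.5 and 2191.2 against 2098.1 and 2147.2. Cycs, cytochrome c, read 936.5 and 774.4 in wild type and 719.3 and 677.9 in sanroque. In this brightest probe set the difference was -0.28, the arrays did not overlap, and the adjusted p was 0.68 in limma. Dimmer probe sets of Cycs gave -0.10 and -0.03, both with overlap.

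Outside Cox7c and Ndufa4, complex IV gave differences on both sides of 0. The median over its 15 tested genes was -0.01, with 7 above and 8 below. The median was 0.06 after quantile normalization and -0.10 under median centring of the arrays. Lower without overlap were 3 genes (Cox7c, Ndufa4 and Cox6a2), against 16.3% of all genes, and higher 1, against 22.3%. Cox4i1, the common form of subunit 4, read 1511.6 and 1889.5 in wild type and 1323.5 and 1670.2 in sanroque, a difference of -0.18. Cox5a, a matrix-side subunit, was closest to 0 by its brightest probe set, at -0.01, with 899.2 and 920.5 against 1010.5 and 809.1. A dimmer Cox5a probe set read 322.9 and 288.5 against 263.1 and 230.6. It did not overlap and differed by -0.30, with a limma adjusted p of 0.653, and another gave -0.15 with overlap. Cox5b, a zinc-binding subunit, read 1074.5 and 1285.2 against 1380.5 and 1216.4, and Cox6c 896.2 and 1098.1 against 962.9 and 1140.0, at 0.14 and 0.08. Cox7a2l, known from work on supercomplexes of complexes III and IV, read 1102.1 and 1666.5 against 1388.2 and 1626.5, a difference of 0.15.

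The tissue forms of complex IV subunits were dim. Cox4i2, a form known from lung, read 32.1 and 6.0 in wild type and 39.0 and 16.8 in sanroque, a difference of 0.58 with a 95% interval of -0.77 to 1.94. Cox6a2, the heart and muscle form, read 76.0 and 70.2 against 61.4 and 62.7. Cox6b2 read 17.4 and 20.2 against 26.6 and 22.4, and Cox8c 93.5 and 58.5 against 115.8 and 61.0, both forms known from testis. These 4 had a median of 0.24. Their intervals were wide at this signal.

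Complex V had 8 of 17 genes above 0 and a median of -0.03, with a range of -0.24 to 0.35. The median was 0.03 after quantile normalization and -0.12 under median centring of the arrays. Higher without overlap were 3 genes, against 22.3% of all genes, and lower 1, against 16.3%. The 5 subunits of its F1 part, which holds the catalytic head, had a median of 0.10 by brightest probe sets, with 4 above 0. The 3 genes of the proton-carrying c ring had a median of -0.15. Atp5a1, the alpha subunit, read 1109.9 and 1249.8 in wild type and 1256.9 and 1295.2 in sanroque, a difference of 0.11 with no overlap. Dimmer probe sets of Atp5a1 gave -0.05 and -0.14, both with overlap. A dimmer probe set of Atp5d gave -0.19 and that of Atp5c1 0.59, both without overlap. Atp5b, the catalytic beta subunit, read 1256.8 and 1109.7 against 1209.7 and 1333.8, a difference of 0.10. Atp5o, which joins head and stalk, read 702.4 and 652.2 against 601.3 and 581.4, a difference of -0.19 with no overlap. Atp5g3, a c-ring gene, read 1304.0 and 1447.1 against 1528.8 and 1545.2, a difference of 0.16. Atp5md, a small membrane subunit, read 116.2 and 144.2 against 190.0 and 145.8, a difference of 0.35 that came mostly from pair 1 (0.68 against 0.02). Atp5j, coupling factor 6, was closest to 0 at 0.01, with 488.3 and 643.6 against 543.1 and 589.2. Atp5if1, the inhibitor of the synthase, was not analysed here.

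By brightest probe sets, all 5 complex I assembly factors were below 0, with a median of -0.27. So were all 3 complex II assembly factors, with a median of -0.08. The pairs had opposite signs in 2 of the 5 and in 1 of the 3. Of these 8 genes, 1 was lower without overlap and 0 were higher, against 16.3% and 22.3% of all genes. Dimmer probe sets of Ndufaf4 (0.03) and Sdhaf2 (0.007) were above 0, both with overlap. Of the other mitochondrial genes, 24 further assembly factors of the chain (median -0.11, 18 below 0), 74 mitochondrial ribosomal proteins (-0.11, 52 below 0) and 26 import genes (-0.09, 16 below 0) were also mostly below 0. The tricarboxylic acid cycle (17 genes, -0.01) lay at 0 and glycolysis (15 genes, 0.13, 11 above 0) above it. Genes of mitochondrial DNA upkeep and biogenesis (17 genes) had a median of -0.03, the adenine nucleotide and phosphate carriers (6 genes) 0.10 and the mitochondrial antioxidant genes (7 genes) 0.05. In limma without the block 0 genes of these lists were called. At an unadjusted p under 0.05 no list had more than 1 gene higher or 2 lower. With the block, 3 of the 186 genes on these lists were called lower (1.61%), a share not above the 2.12% of all genes. Mrpl12, a mitochondrial ribosomal protein, differed by -0.66 with an adjusted p of 0.0123. Tfb1m, which modifies mitochondrial ribosomal RNA, differed by -0.64 with an adjusted p of 0.0438. Aldoa, the aldolase of glycolysis, differed by -0.46 with an adjusted p of 0.0455.

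Members read higher on the number 2 arrays in both genotypes: wild type 2 was above wild type 1 in 73 of 87 genes and sanroque 2 above sanroque 1 in 66, with median differences of 0.29 and 0.16. For all 7860 genes the counts were 3445 and 3660, with medians of -0.06 and -0.03. Medians over the 4095 genes of mean signal 100 or more were taken relative to each gene's 4-array mean. They were -0.02 and 0.02 in wild type 1 and 2, and -0.02 and 0.03 in sanroque 1 and 2. For the members they were -0.10 and 0.17 in wild type and -0.12 and 0.06 in sanroque. The highest of the 4 signals was in wild type 2 for 52 of the 87 members, and the lowest in sanroque 1 for 41 and in wild type 1 for 36. The number 1 and number 2 arrays were hybridised on different days, and the part of the day in this was not tested. The median difference of all members depended on single arrays: it was 0.04 without wild type 2 and 0.01 without sanroque 1, against -0.18 without wild type 1 and -0.19 without sanroque 2. Below 0 were 37, 40, 70 and 62 of 87 genes in the same order, against 57 with all arrays. With all arrays, 51 were below 0 after quantile normalization and 66 under median centring of the arrays, which also moved the median of all genes from 0.03 to -0.06.

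**Figure D3:**
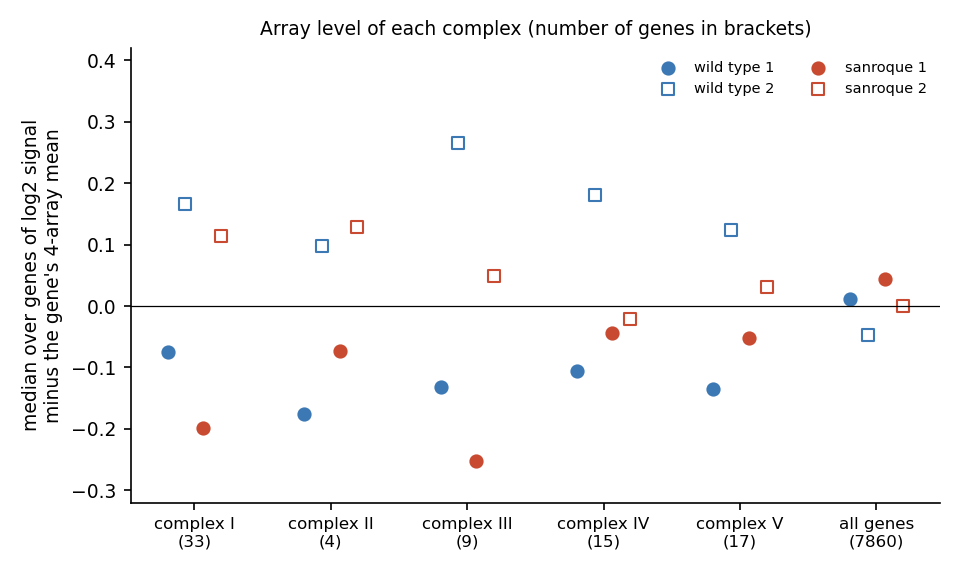
Median over the genes of each complex of the log2 signal minus the gene's mean over the 4 arrays, per array; blue is wild type, red is sanroque, filled circles are number 1 arrays and open squares number 2 arrays. Number 2 arrays lie above number 1 arrays of the same genotype for complexes I, II, III, IV and V, while the points of all genes lie between -0.05 and 0.04.

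By pair, 47 of 87 members were below 0 in pair 1 and 62 in pair 2, with 38 in both and 16 above 0 in both. The pairs share no array. Across the 87 genes their differences correlated with Pearson's r 0.479 and Spearman's rho 0.423, and across all genes with 0.472 and 0.364, as a description of genes that are not independent replicates. Complex IV was at 0.17 in pair 1 and -0.15 in pair 2, complex V at 0.00 and -0.09, complex II at 0.11 and 0.01, and complex III at -0.01 and -0.15.

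**Figure D4:**
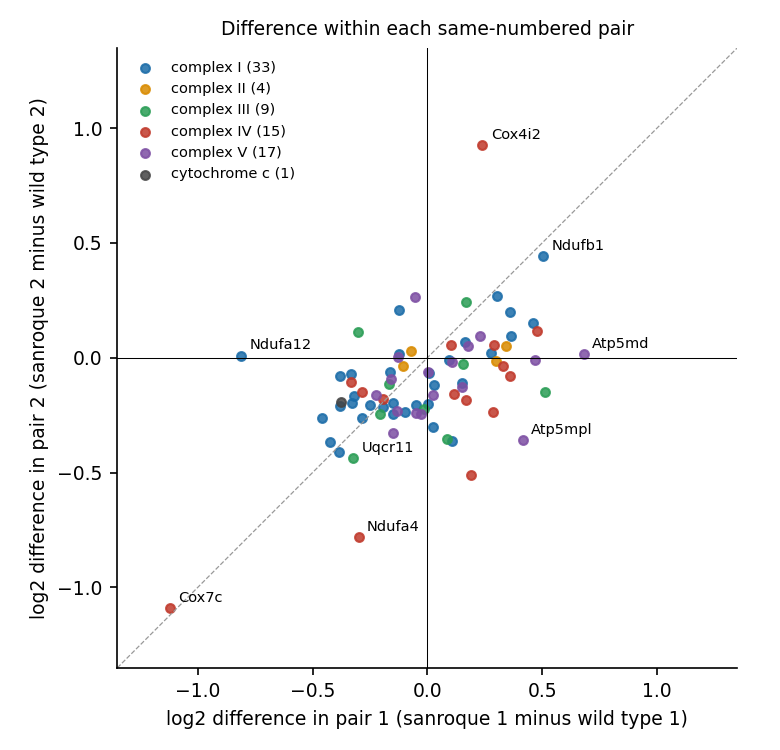
Log2 difference in pair 1 (x axis) against pair 2 (y axis) for each gene of the 5 complexes and cytochrome c, coloured by complex. Cox7c, at -1.12 and -1.09, lies near the dashed line of equal differences, Ndufa4 at -0.30 and -0.78, and Atp5mpl on opposite sides of 0.

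Probe sets of one gene often went different ways. Of 46 members with at least 2 probe sets tested, 23 had differences of opposite sign. Ndufa12, an accessory subunit of complex I, had 4 probe sets from -0.56 to 0.31. Its brightest read 515.2 and 490.4 in wild type and 291.0 and 493.7 in sanroque, so that the difference of -0.40 rested on sanroque array 1. Cox5b had 5 probe sets from -0.36 to 0.39, Ndufab1 had 3 from -0.40 to 0.31, and a second Cox6c probe set gave -0.52 with 437.6 and 408.0 against 238.7 and 361.1. Another 8 probe sets named a member together with a second gene and were not used.

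**Figure D5:**
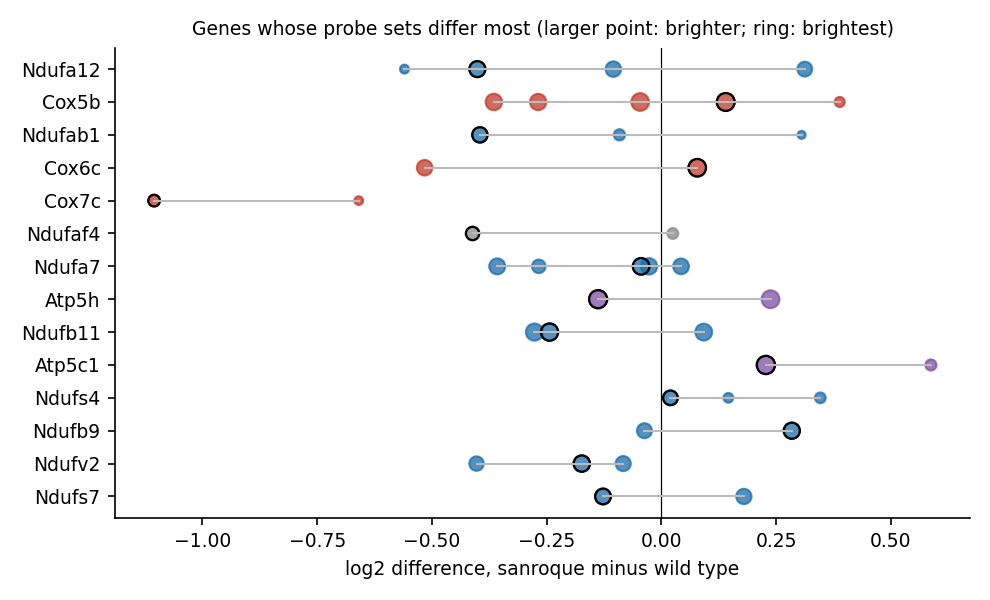
Log2 difference of each tested probe set for the 14 genes whose probe sets differ most, with larger points for brighter probe sets and a ring around the brightest. Ndufa12, Cox5b and Ndufab1 span both sides of 0, and both Cox7c probe sets lie below 0.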

How the data were processed

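Signal intensity per probe set, on a linear scale, was used as deposited by the authors; the summary algorithm is not given in the sources used here. CD4 cell RNA of 2 wild type and 2 sanroque arrays was compared. Intensities were taken as log2(signal + 6), and probe sets below the 40th percentile of mean signal (21.3) and 64 controls were left out, leaving 13579. Limma 3.58.1 in R 4.3.3 (lmFit, eBayes with a variance trend, two-sided, Benjamini-Hochberg over all probe sets) gave p-values, and each gene is shown by its brightest probe set. Per the file headers, same-numbered arrays share a hybridisation day, which pairs them; deviations from the genotype means correlated at 0.392 within the 2 pairs. Only the first day has a wash protocol on record. Fits were tested on simulated data with independent noise and no day effect, so the handling of a day effect by the block was not tested. Figures used Python 3.11.15 and matplotlib 3.10.9. The members, lists and tests were chosen with earlier results of these data known. Genes were named if they passed with or without the block, by up to 3 largest differences of a complex among genes without overlap and with the same sign in both pairs, by its 1 smallest, from a fixed set of subunits and tissue forms, or for the 3 largest probe set gaps; other members are summarised, and Ndufa6, Atp5mpl and those listed without overlap were named after their values were seen. Of the fixed set, 1 gene is not reported here. Alternatives are in the closing section.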

Additional observations from a re-analysis of the deposited data

Results flagged for a closer look

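The median difference of complex IV had opposite signs in the same-numbered pairs, 0.167 in pair 1 and -0.149 in pair 2, and the difference between the pairs was not tested. That of complex V was 0.00227, close to 0, in pair 1 and -0.0921 in pair 2. Atp5mpl, a small membrane subunit of the ATP synthase, differed by 0.415 in pair 1 and -0.358 in pair 2, from 490.9 and 748.7 in wild type to 656.3 and 582.8 in sanroque.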

How the results depend on the processing

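With 2 arrays a genotype, the count of members called was 0 under quantile normalization, both other pseudocounts, both other filters, the title wording as a block, no variance trend and treat. It was 1 (Cox7c) with each array centred on its median, 2 with the replicate block, and 0 to 1 when each array was left out in turn. The median of complex IV was -0.155 when all probe sets of a gene were averaged, and -0.163 to 0.00802 when arrays were left out, and that of complex V -0.16 to 0.11. When each array was left out, Atp5j ranged from -0.18 to 0.21, Cox4i2 from -0.25 to 1.42, Cox7a2l from -0.15 to 0.45, Cox8c from -0.26 to 0.60, Cyc1 from -0.37 to 0.18, Ndufs1 from -0.20 to 0.28, Ndufs4 from -0.23 to 0.27 and Sdhd from -0.10 to 0.39, all with adjusted p above the threshold. The signs of Cox5a (-0.17 to 0.15), Cox6c (-0.07 to 0.22), Sdha (-0.14 to 0.10), Sdhc (-0.17 to 0.03) and Uqcrb (-0.05 to 0.17) also turned; the cause was not tested. Centring each array on its median put the members' median at -0.18. The replicate block changed no other call of a member. Cox7c stayed between -1.21 and -0.998 with each array left out, with limma adjusted p of 0.0812 to 0.189. The small number of arrays limits the precision.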
